A study of Mus musculus with 8 samples.

Results

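The genes described here encode 9 transcription factors of the circadian clock's activating arm and the loops attached to it: Clock, Arntl, Npas2, Rora, Rorb, Nfil3, Bhlhe40, Bhlhe41 and Hlf. They were chosen by symbol, and each of the 9 matched 1 row of the 34094 genes in the deposited table. The RNA came from hippocampal CA1 tissue of mice, in 4 libraries of wild-type mice (WT) and 4 of mice with a conditional knockout of Brpf1 (cKO), a scaffold gene of histone acetyltransferase complexes linked to intellectual disability. All animals were C57BL/6 mice of 2 months, kept in 12 h of light and 12 h of dark. The cKO libraries carry the genotype label Brpf1 knockdown and the title wording cko type. Every library title reads hippocampus tissue and does not name CA1. The Cre driver, the exons removed and the hour at which tissue was taken were not given in the sources used here. That hour bears on these genes, because the transcripts of several of them cycle over the day. One protocol speaks of 3 pairs of mice and the labels list 4 libraries per group, so p-values speak of library-to-library spread alone, some of which may be technical.

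The clock is a feedback loop of transcription. CLOCK, or its paralog NPAS2, pairs with BMAL1, the product of Arntl, and the pair binds E-box sequences and switches on its own repressors, the Per and Cry genes. BHLHE40 and BHLHE41 (DEC1 and DEC2) are repressors that occupy the same E-boxes. In a further loop RORA and RORB activate, and the REV-ERB proteins repress, genes that carry an ROR element, Arntl among them. HLF, like DBP and TEF, activates through the D-box, and NFIL3 (E4BP4) represses through it. In the forebrain NPAS2 is known as a partner of BMAL1 beside CLOCK, and both CLOCK and its partners are expressed outside the central clock of the hypothalamus.

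The 3 kinds of DNA element were searched in the start-site windows of these genes. The matches are shown, apart from 1 variant E-box of Rorb, so that the letters searched can be read in their place. RefSeq windows (build GRCm38.p6, 250 bases before to 50 after each annotated start) were found for 8 of the 9 genes, in 12 windows, and Bhlhe40 had none in the table. The E-box CACGTG, its variant CACGTT, the ROR half-site AGGTCA and the D-box TTANGTAA were searched on both strands. None of these patterns contains another. Capitals mark the match in each line, written 5′ to 3′ along the gene's strand.
Bhlhe41, E-box, minus strand, chr6:145865421-145865670, the 250 bases before the start: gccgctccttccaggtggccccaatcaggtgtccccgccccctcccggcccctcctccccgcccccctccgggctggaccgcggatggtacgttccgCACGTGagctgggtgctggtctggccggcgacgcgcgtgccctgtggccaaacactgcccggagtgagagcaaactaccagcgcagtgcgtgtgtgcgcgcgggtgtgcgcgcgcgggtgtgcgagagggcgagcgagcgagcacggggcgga
Arntl, ROR half-site, plus strand, chr7:113207530-113207559, after the downstream one of its 2 annotated starts: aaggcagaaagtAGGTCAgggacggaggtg
Nfil3, ROR half-site on the opposite strand, minus strand, chr13:52981040-52981078: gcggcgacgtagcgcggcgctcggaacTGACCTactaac
Clock, ROR half-site on the opposite strand, minus strand, chr5:76303589-76303648: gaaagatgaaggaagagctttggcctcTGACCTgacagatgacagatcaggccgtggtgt
Rorb, D-box on the opposite strand, minus strand, chr19:19001178-19001239: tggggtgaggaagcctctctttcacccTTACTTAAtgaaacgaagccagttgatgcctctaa
The E-box of Bhlhe41 begins 153 bases before the start, and 7.15% of all 32851 windows hold that motif. The ROR half-site was in 3 of the 12 windows, 1 each of Arntl, Nfil3 and Clock, against 16.3% of all windows. The Arntl match begins at base 32 after that start, and the Nfil3 match 12 bases before its start. The Clock match belongs to 1 of its 3 annotated starts. The D-box was in 1 Rorb window (2.32% of all windows), and the same window held the variant E-box (4.68% of all windows). A match is a description of these letters. Binding was not measured in this study.

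The WT libraries held 42346644 to 49897832 reads on genes and the cKO libraries 40330226 to 46559795. The targeted gene Brpf1 lay between 1358 and 1473 normalized reads in WT and between 848 and 1032 in cKO, with a log2 difference of −0.59 (SE 0.089, limma adjusted p = 0.132). A normalized read count is the reads over the size factor of that library, and differences are on the log2(normalized reads + 1) scale, as cKO minus WT. All 7 CA1 pyramidal markers checked, such as Wfs1 and Fibcd1, had reads in every library, with 3 of 7 differences above 0 and 4 below (median −0.0012). The 7 CA3 and CA2 markers did too, as did the 6 dentate granule markers, with 3891 to 5474 normalized reads of Prox1. The tissue thus held RNA beyond CA1 neurons. In bulk tissue, fewer cells of a type and less RNA per cell cannot be told apart.

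All 9 genes were well measured, with at least 258 reads in every library, and all 9 passed the filter on low values. None passed limma over all genes (Benjamini-Hochberg adjusted p from 0.510 for Clock to 0.991 for Nfil3, 26135 genes tested), where 0.0191% of all genes did (0.00765% higher and 0.0115% lower in cKO). With limma-voom on the recovered reads the count was also 0, against 0.0153% of all genes. At an unadjusted limma p under 0.05 there were 2 of 9, Clock lower and Bhlhe40 higher in cKO, against 8.67% of all genes. With limma-voom it was 1 of 9, against 8.82%. In none of the 9 were the groups free of overlap, which was so for 4.92% of all genes tested (2.57% with every cKO library above and 2.35% below). The median log2 difference of the 9 was 0.011, and that of all genes tested was −0.018. Among the 11842 genes whose mean log2 value reached 8, as did that of all 9, the median was 0.025, above that of the 9, and 1326 had an unadjusted limma p under 0.05. By the FDR in the authors' deposited table, 0 of the 9 are under 0.05, against 0.657% of its genes, and the lowest is 0.181, for Clock. By the unadjusted p in the authors' deposited table, Clock (0.00381), Bhlhe40 (0.0308) and Bhlhe41 (0.0354) are under 0.05, against 9.11% of its genes.

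Clock encodes the partner of BMAL1 in the activating pair. It had 5439, 4633, 6156 and 4734 normalized reads in WT replicates 1 to 4 and 4745, 4213, 4028 and 3995 in cKO replicates 1 to 4. cKO replicate 1 lay above WT replicates 2 and 4, while the other 3 cKO libraries lay below every WT library. The means were 5240 ± 708 and 4245 ± 347 (SD, n = 4), or 81.0% of the WT level. The log2 difference was −0.30 (SE 0.10), with a 95% interval for the cKO level of 0.696 to 0.952 times WT (limma unadjusted p = 0.0147, adjusted p = 0.510). The two-sided exact permutation p was 0.0857, where 4 against 4 can give no less than 0.0286. The difference was smallest without WT replicate 3, the highest library, at −0.22.

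Arntl encodes BMAL1, the partner that CLOCK and NPAS2 share. Its normalized reads were 1453, 1866, 1698 and 1534 in WT and 1523, 1474, 1509 and 1622 in cKO. The 4 cKO libraries lay inside the WT range. The means were 1638 ± 183 and 1532 ± 63.6 (SD, n = 4), and the 95% interval of the ratio to WT was 0.815 to 1.08 (log2 difference −0.091, SE 0.092, limma adjusted p = 0.803). The difference was −0.026 without WT replicate 2 and −0.15 without WT replicate 1.

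Npas2 encodes the forebrain paralog of CLOCK. It had 856, 1034, 1002 and 979 normalized reads in WT and 1046, 901, 1075 and 1255 in cKO. In cKO, 3 libraries were above every WT library, and cKO replicate 2 was below 3 of the WT libraries. The means were 968 ± 77.8 and 1069 ± 146 (SD, n = 4), with an interval of 0.924 to 1.31 times WT (log2 difference 0.14, SE 0.11, limma adjusted p = 0.742). The difference was 0.057 without cKO replicate 4, 0.079 without WT replicate 1 and 0.22 without cKO replicate 2.

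**Figure D1:**
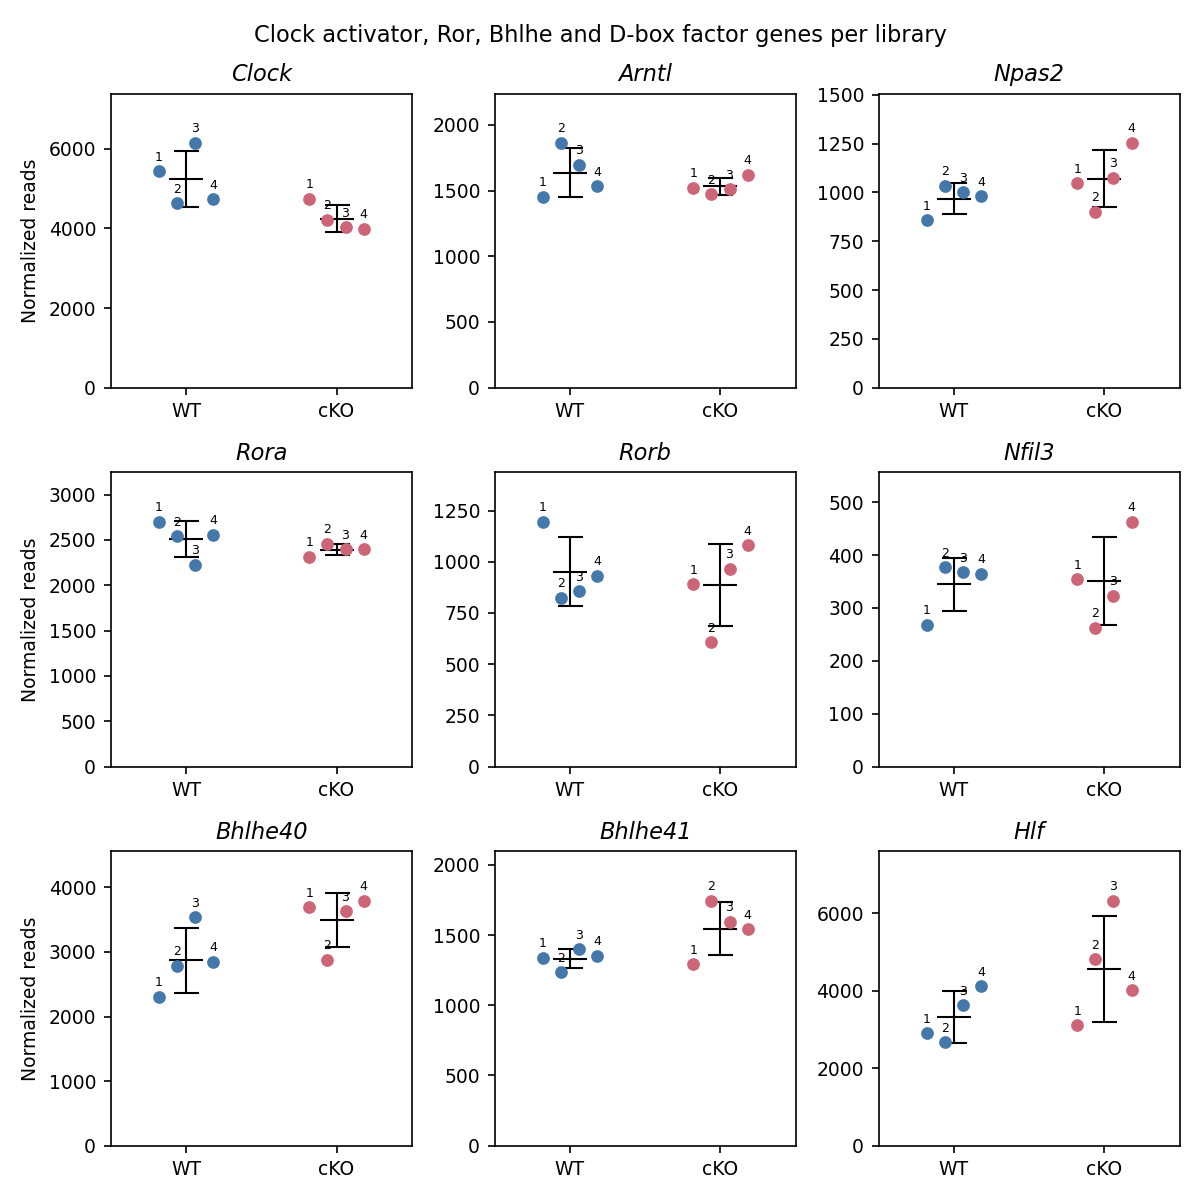
Normalized reads (vertical axes, from 0) of the 9 genes in each of the 4 WT (blue) and 4 cKO (red) libraries, numbered by replicate, with the mean and SD in black. Clock lies lower in 3 cKO libraries than in any WT library, Bhlhe40, Bhlhe41 and Npas2 lie higher in 3, and in all 9 genes the groups overlap.

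The activators of the ROR element had small average differences, with a wider interval for Rorb than for Rora. Rora encodes a nuclear receptor also needed in the cerebellum, and it had 2703, 2540, 2228 and 2557 normalized reads in WT and 2317, 2458, 2396 and 2400 in cKO. The cKO libraries fell within the WT range and varied less, with a coefficient of variation of 2.41% against 7.96% in WT. The log2 difference was −0.064 (SE 0.077, limma adjusted p = 0.842), with an interval of 0.850 to 1.08 times WT. It was −0.027 without WT replicate 1 and −0.12 without WT replicate 3. Rorb, a paralog known for layer 4 of the cortex and for the retina, had 1196, 824, 856 and 932 in WT and 891, 608, 966 and 1080 in cKO. WT replicate 1 was the highest and cKO replicate 2 the lowest, and the log2 difference of −0.12 (SE 0.18, limma adjusted p = 0.882) turned to 0.052 without cKO replicate 2. It was −0.0037 without WT replicate 1 and −0.22 without cKO replicate 4.

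The E-box repressors of the Bhlhe pair were both higher on average in cKO. Bhlhe40, whose transcript also answers to neuronal activity, had 2305, 2789, 3535 and 2849 normalized reads in WT and 3695, 2877, 3628 and 3796 in cKO. Again 3 cKO libraries were above every WT library, and cKO replicate 2 lay among the WT libraries. The means were 2870 ± 506 and 3499 ± 420 (SD, n = 4), with a log2 difference of 0.29 (SE 0.13, 95% interval 0.0014 to 0.59, limma unadjusted p = 0.0491, adjusted p = 0.574, exact permutation p = 0.0571). Without WT replicate 1, its lowest library, the difference was 0.19, more than 1.5 times smaller.

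Bhlhe41 had 1338, 1237, 1397 and 1352 normalized reads in WT and 1291, 1746, 1596 and 1543 in cKO. WT libraries were close together, and 3 cKO libraries exceeded them all while cKO replicate 1 lay among them. The log2 difference was 0.21 (SE 0.10, 95% interval −0.015 to 0.43, limma adjusted p = 0.592), and the means were 1331 ± 67.4 and 1544 ± 189 (SD, n = 4). A gene on the other strand, Gm43909, shares 1280 exon bases with Bhlhe41 in GENCODE M21. It had 128 normalized reads on average in WT and 125 in cKO, and whether counting used the strand was not stated. Without strand, reads of this pair cannot be told apart. The overlaps of the other members are small: 0610040F04Rik shares 118 exon bases with Bhlhe40 and had 29.8 normalized reads on average in WT and 24.9 in cKO.

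Hlf and Nfil3 act on the D-box in opposite directions. Hlf had 2909, 2668, 3625 and 4126 normalized reads in WT and 3108, 4824, 6333 and 4013 in cKO. It varied most of the 9 within cKO, with a coefficient of variation of 29.96%, and 2 cKO libraries were above every WT library. The means were 3332 ± 667 and 4570 ± 1369 (SD, n = 4), or 137% of WT, the largest difference on the log2 scale among the 9 (0.43, SE 0.22, 95% interval −0.055 to 0.91, limma adjusted p = 0.600). Without cKO replicate 3 it was 0.26, more than 1.5 times smaller. Nfil3 had 268, 377, 368 and 364 in WT and 355, 263, 323 and 463 in cKO. The lowest library of each group lay at about the same level, and the log2 difference was 0.011 (SE 0.19, limma adjusted p = 0.991), with an interval of 0.758 to 1.34 times WT. Without 1 library it ranged from −0.13 to 0.14.

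**Figure D2:**
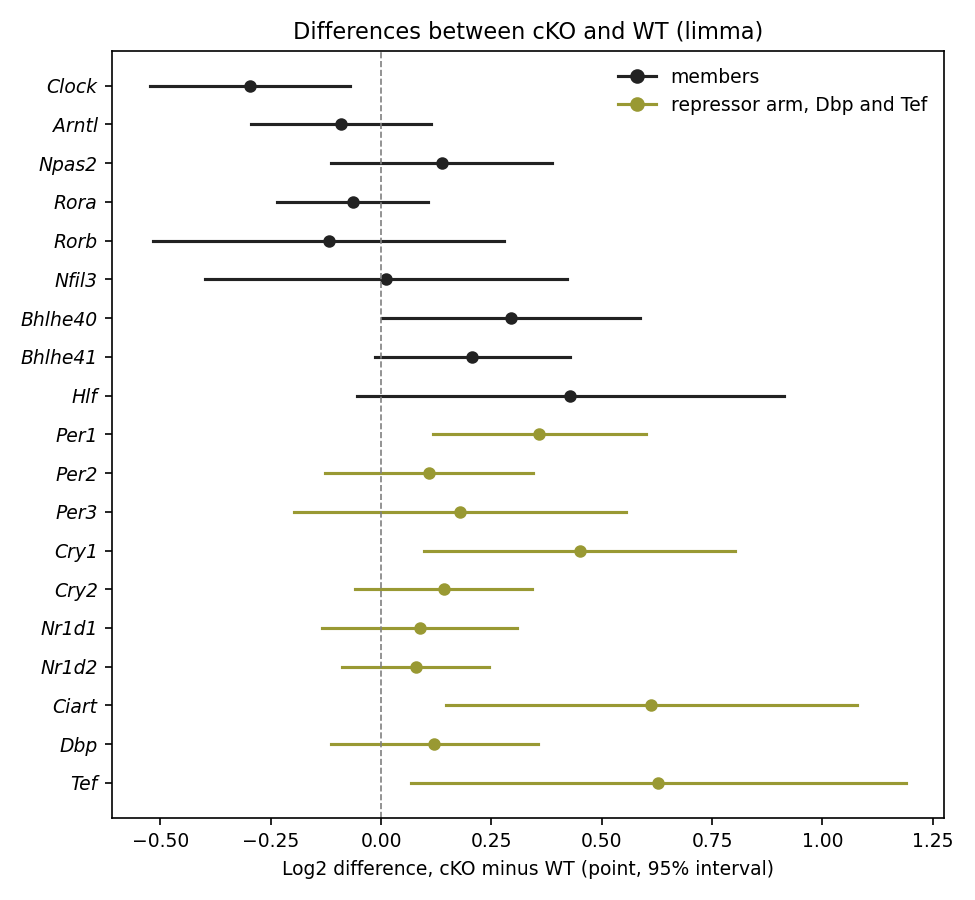
Log2 difference between cKO and WT (horizontal axis, points with 95% intervals from limma) for the 9 genes (black) and for 10 other clock genes (olive). The intervals of Clock (below 0) and Bhlhe40 (above 0, by 0.0014) exclude 0 before adjustment, and those of the other 7 black genes include it.

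Per length, the genes stood at different levels. Normalized reads were divided by the bases covered by any exon of the gene in GENCODE M21, an annotation of a later build than the one used for counting, so these levels are approximate. Bhlhe40 was the highest in WT, at 610 ± 108 normalized reads per kb (SD, n = 4), followed by Hlf at 499 ± 99.9 and Clock at 382 ± 51.6. Neighbours in this order overlapped between libraries: Bhlhe40 ranged from 490 to 751, Hlf from 399 to 618 and Clock from 338 to 448. Then came 5 genes in which neighbours in the order overlapped: Arntl from 193 to 248, Npas2 from 179 to 216, Bhlhe41 from 184 to 208, Rora from 170 to 207 and Nfil3 from 132 to 186 per kb. The first and last of these, Arntl and Nfil3, did not overlap. Rorb stood lowest at 86.0 ± 15.3, and its highest WT library, 108, was below the lowest Nfil3 library, 132. In cKO the same 3 genes led and Rorb was again lowest, at 80.0 ± 18.1. The level of Clock per kb was thus above that of Npas2 in every library, with ranges of 338 to 448 against 179 to 216 in WT and 291 to 346 against 188 to 262 in cKO.

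**Figure D3:**
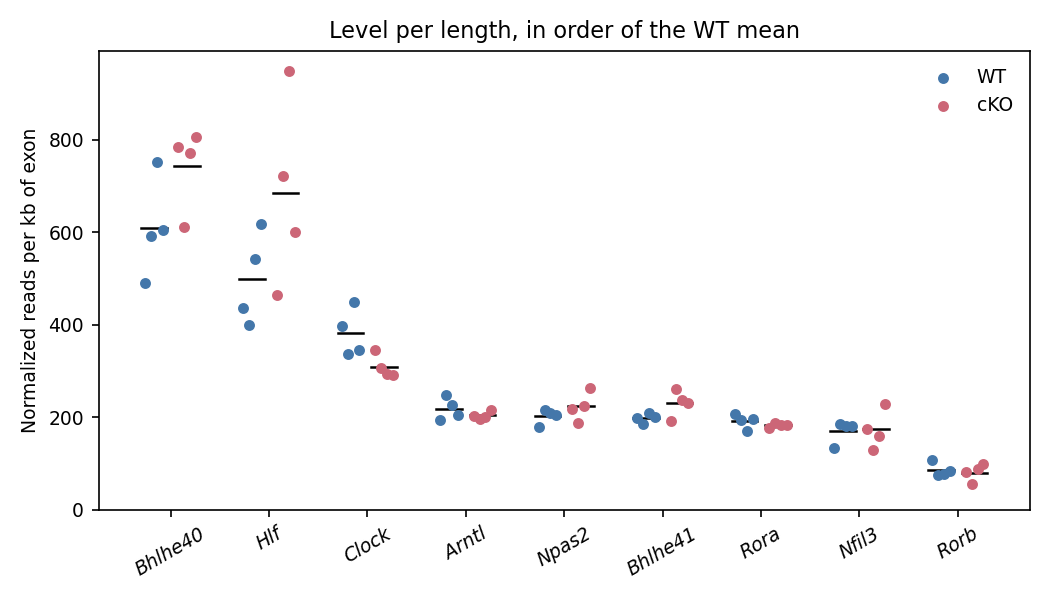
Normalized reads per kb of exon (vertical axis) for each library (points, WT blue and cKO red) and group means (lines), with genes in order of the WT mean. Bhlhe40, Hlf and Clock stand above the other genes, and Rorb is lowest at 86.0 in WT and 80.0 in cKO.

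Ratios between partners and paralogs were compared within each library, where the size factor cancels. Of 6 ratios, 0 passed after adjustment over the 6 (Benjamini-Hochberg adjusted exact permutation p from 0.257 to 0.886), and 0 had an unadjusted p under 0.05. Clock over Npas2 was 6.35, 4.48, 6.14 and 4.83 in WT and 4.53, 4.67, 3.74 and 3.18 in cKO. The 2 lowest values were cKO replicates 3 and 4, while cKO replicates 1 and 2 lay at the level of WT replicate 2. The log2 difference of this ratio was −0.43, from a mean log2 ratio of 2.43 ± 0.25 (SD, n = 4) for WT to 1.99 ± 0.26 for cKO. The exact permutation p was 0.0857 (adjusted 0.257).

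Npas2 over Arntl, the ratio of the paralog to the shared partner, was 0.589, 0.554, 0.590 and 0.639 in WT and 0.687, 0.611, 0.713 and 0.774 in cKO. Of the cKO libraries, 3 were above every WT library, and the log2 difference was 0.23 (exact permutation p = 0.0571, adjusted 0.257). Clock over Arntl differed by −0.21 (p = 0.229 in the exact permutation test, adjusted 0.457), and its highest values were WT replicates 1 and 3, at 3.74 and 3.62. Without WT replicate 1 it was −0.13, and without WT replicate 2 it was −0.33. Hlf over Nfil3, the activator over the repressor of the D-box, was 10.8, 7.06, 9.82 and 11.3 in WT and 8.74, 18.3, 19.5 and 8.64 in cKO. Its cKO libraries split into a pair above and a pair inside the WT range (log2 difference 0.42, exact permutation p = 0.343). The difference was 0.22 without cKO replicate 3, 0.25 without cKO replicate 2 and 0.27 without WT replicate 2. Rora over Rorb and Bhlhe40 over Bhlhe41 differed by 0.055 and 0.087 (exact permutation p = 0.886 and 0.686).

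**Figure D4:**
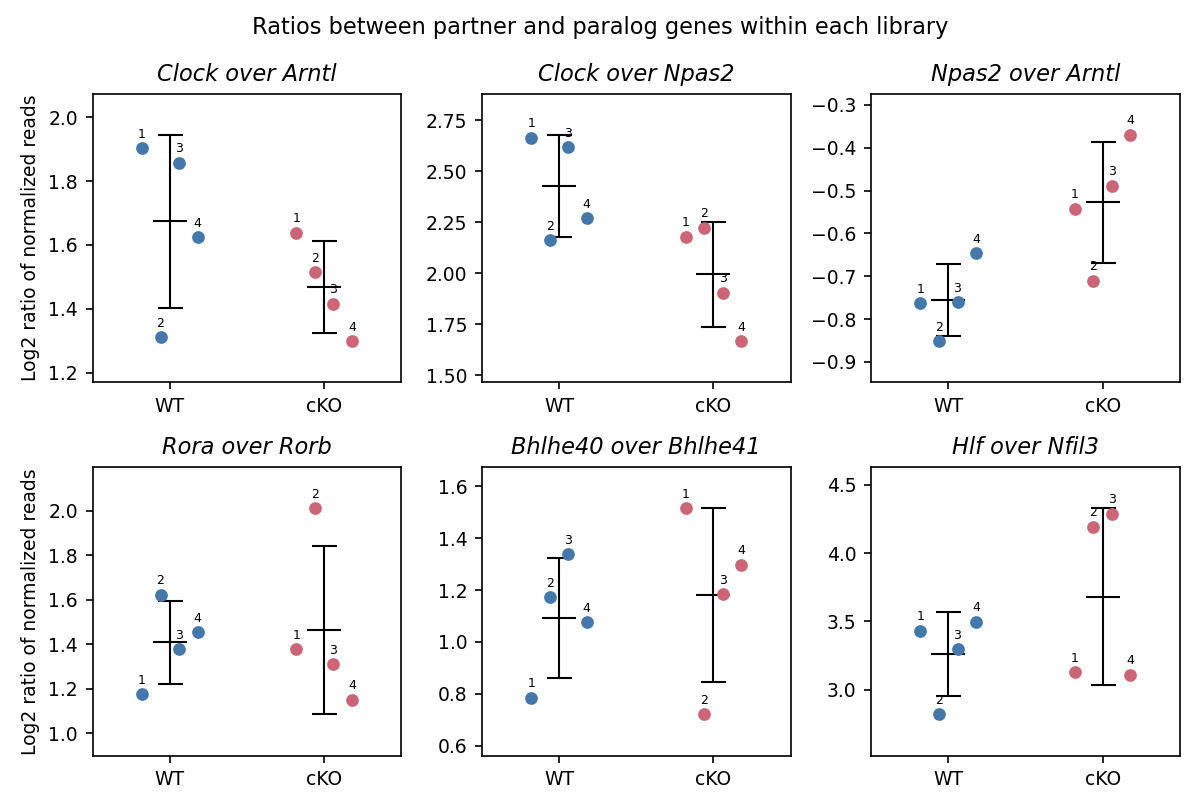
Log2 ratio of normalized reads (vertical axes, not from 0) for 6 pairs of genes in each WT (blue) and cKO (red) library, numbered by replicate, with the mean and SD. Clock over Npas2 averages 2.43 in WT and 1.99 in cKO, Npas2 over Arntl is higher in 3 cKO libraries than in any WT library, and all 6 ratios overlap between the groups.

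The 9 genes did not vary as 1 block between libraries. In cKO replicate 2, Arntl, Npas2, Rorb, Nfil3 and Bhlhe40 were at their lowest of the 4 cKO libraries, while Bhlhe41 was at its highest. In WT replicate 1, Arntl, Npas2, Nfil3 and Bhlhe40 were at their lowest of the 4 WT libraries. The same 2 libraries held the lowest values of most immediate early genes, which answer to neuronal activity: 8 of 10 in cKO replicate 2 and 7 of 10 in WT replicate 1. In WT replicate 3, 7 of 10 immediate early genes were at their highest of the WT libraries, as was Bhlhe40. Arntl, Npas2 and Nfil3 were instead at theirs in WT replicate 2, and Rorb in WT replicate 1. In cKO replicate 4, all 10 immediate early genes were at their highest of the cKO libraries, as were Arntl, Npas2, Rorb, Nfil3 and Bhlhe40. The summed level of the 10 ranged from 13748 to 19307 normalized reads in WT and from 10163 to 21684 in cKO, and none was at 0 in any library. Other lists moved with these libraries too. Interneuron markers were at their lowest of the cKO libraries in replicate 2 for 6 of 8 genes and at their highest in replicate 4 for 7 of 8. In cKO replicate 4, 8 of 10 oligodendrocyte and 5 of 6 microglia markers were also at their highest. In WT replicate 1, 7 of 8 choroid plexus and 6 of 8 thalamus markers were at their lowest. So were 4 of 6 dentate granule, 4 of 6 ependymal and 4 of 8 interneuron markers. Bhlhe41 and Hlf were both at their lowest of the group in WT replicate 2 and in cKO replicate 1. In WT replicate 2, 10 of 10 oligodendrocyte, 5 of 7 astrocyte and 3 of 6 microglia markers were also at their lowest. In cKO replicate 1, 8 of 10 oligodendrocyte, 6 of 7 astrocyte and 6 of 6 microglia markers were. In WT replicate 1, 5 of 10 oligodendrocyte, 4 of 7 astrocyte and 3 of 6 microglia markers were at their highest. Bhlhe41 was instead at its highest in WT replicate 3 and cKO replicate 2, and Hlf in WT replicate 4 and cKO replicate 3. Of the astrocyte markers, 4 of 7 were also at their highest in cKO replicate 2. Of the 10 immediate early genes, 0 passed limma after adjustment and 1, Npas4, had an unadjusted p under 0.05. The part of these lists in the values of Npas2, Nfil3, Bhlhe40, Bhlhe41 and Hlf was not tested.

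Of the 36 pairs among the 9 genes, 4 had an unadjusted exact permutation p under 0.05 for Pearson's r over the 8 libraries, and 0 passed after adjustment over the 36. The share of all gene pairs with such a p was not computed, so whether 4 of 36 is more than usual is not known. Rora and Bhlhe40 ran opposite to each other (r = −0.88, exact permutation p = 0.00491, adjusted 0.109; Spearman's rho = −0.76, p = 0.0368, adjusted 0.331). Without WT replicates 1 and 3, the libraries farthest from the Rora median, r was −0.88. Npas2 and Nfil3 ran together (r = 0.88, exact permutation p = 0.00605, adjusted 0.109), but rho was 0.60 (p = 0.132, adjusted 0.777) and r was 0.64 without WT replicate 1 and cKO replicate 4. How far that relation rests on those libraries cannot be told, since leaving them out also narrows the range of Npas2. Bhlhe41 and Hlf had r = 0.83 (exact permutation p = 0.0116, adjusted 0.132) and rho = 0.88 (p = 0.00724, adjusted 0.130), and r was 0.76 without cKO replicates 2 and 3. Npas2 and Bhlhe40 had r = 0.80 (exact permutation p = 0.0146, adjusted 0.132) and rho = 0.81 (p = 0.0218, adjusted 0.261). Here r was 0.59 without WT replicate 1 and cKO replicate 4, with the same limit. No correlation was computed within a single group of 4 libraries. With the group means removed, r was −0.87, 0.97, 0.73 and 0.75 for the 4 pairs in this order. By Spearman's rho, Arntl and Nfil3 had the lowest p of the 36 (rho = 0.90, exact permutation p = 0.00456, adjusted 0.130), with r = 0.61 (p = 0.107, adjusted 0.667). For this pair r was 0.98 without WT replicates 2 and 3, and 0.68 with the group means removed.

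**Figure D5:**
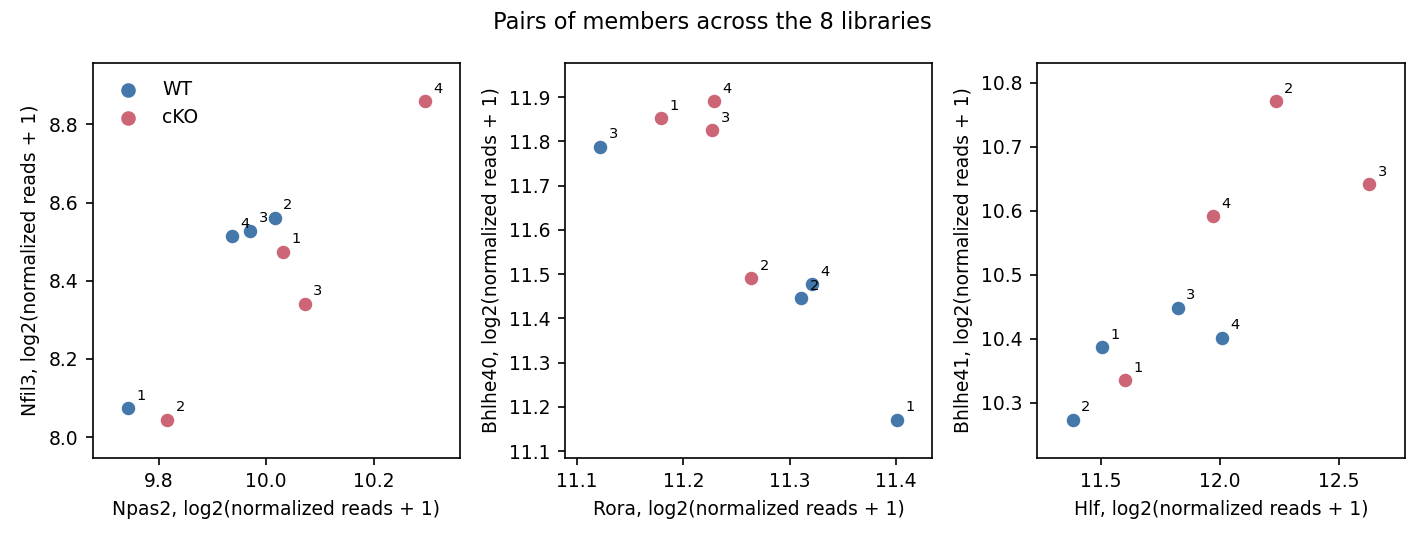
Log2(normalized reads + 1) of 3 pairs of genes, chosen for their correlation, in the WT (blue) and cKO (red) libraries, numbered by replicate. Libraries with more Rora hold less Bhlhe40 (r = −0.88), Npas2 and Nfil3 are both low in WT replicate 1 and cKO replicate 2, and Bhlhe41 and Hlf are highest in cKO replicates 2 and 3.

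Among 16486 other genes with a symbol and a mean log2 value of 5 or more, those most like Clock over the 8 libraries were Gm14536 (r = 0.96), D430036J16Rik (r = 0.95) and Gm28941 (r = 0.93), all with under 120 normalized reads in every library. For Arntl they were Fam168a (r = 0.96), Tdg and Podxl (r = 0.93 for each). For Npas2 they were Spats2 (r = 0.98), Sorcs3 (r = 0.97) and Myo16 (r = 0.96). So many genes were compared over so few libraries that these values are a description only. The number of genes with r above 0.9 was 89 for Npas2, 16 for Clock and 7 for Arntl.

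The other clock genes were read as lists beside the 9. Of 44 measured genes in 6 lists, 0 had an adjusted p under 0.05 with either limma or limma-voom. An unadjusted limma p under 0.05 was found for 7, 6 higher and 1 lower in cKO, against 4.07% and 4.6% of all genes. Of the 44, 33 had a log2 difference above 0, against 47.3% of all genes tested, with a median of 0.10. Of the 11842 genes whose mean log2 value reached 8, 6663 were above 0. The repressors that CLOCK and BMAL1 switch on (Per1, Per2, Per3, Cry1, Cry2, Nr1d1, Nr1d2 and Ciart) had 8 of 8 differences above 0, with a median of 0.16. For Ciart, a repressor of the CLOCK and BMAL1 pair, every cKO library (299 to 521 normalized reads) was above every WT library (172 to 280), with a log2 difference of 0.61 (SE 0.21, limma adjusted p = 0.510). The same order held for Per1 (1672 to 2271 in WT, 2322 to 2880 in cKO), with a difference of 0.36 (limma adjusted p = 0.496). Every cKO library above every WT library was found in 2.57% of all genes. Cry1 had 370 to 432 normalized reads in WT and 410 to 715 in cKO (log2 difference 0.45, limma adjusted p = 0.512). Differences for Per2, Per3, Cry2, Nr1d1 and Nr1d2 lay between 0.079 and 0.18, and that of Per3 was as low as 0.0084 without cKO replicate 2.

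The activators of the D-box that stand beside Hlf were Tef and Dbp. Tef had 10539, 9133, 11464 and 4836 normalized reads in WT and 12305, 14907, 13200 and 12584 in cKO, so the cKO libraries all exceeded the WT libraries, and WT replicate 4 was far below the rest of its group. Its log2 difference was 0.63 (SE 0.25, limma adjusted p = 0.539), and 0.35 without WT replicate 4. Dbp had 1506 to 2003 in WT and 1753 to 2195 in cKO, with a difference of 0.12 (SE 0.11, limma adjusted p = 0.761). Tef was the 1 gene of 6 D-box relatives with an unadjusted p under 0.05.

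Relatives of CLOCK in the bHLH-PAS family included 2 of 10 measured genes at an unadjusted limma p under 0.05. Npas4, a transcription factor gene induced by neuronal activity, had 876, 743, 661 and 510 normalized reads in WT and 430, 272, 189 and 546 in cKO, with a log2 difference of −1.04 (SE 0.31, adjusted p = 0.496). Only cKO replicate 4 reached into the WT range. Arnt2, a partner of NPAS4, had 8599 to 9691 in WT and 9677 to 11398 in cKO (log2 difference 0.21, SE 0.073, limma adjusted p = 0.510). Of the 5 Hes and Hey repressors, 0 had an unadjusted limma p under 0.05. Of 5 ROR relatives and coactivators 1 did, the coactivator gene Ncoa1 (4496 to 6165 in WT, 5703 to 6774 in cKO, log2 difference 0.25, limma adjusted p = 0.541).

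Other cell types of the tissue also differed between the libraries. Oligodendrocyte markers had 10 of 10 differences below 0, as had 13784 of all 26135 genes, and 3 were lower at an unadjusted limma p under 0.05, against 4.6% of all genes, with a summed level of 121031 to 177607 normalized reads in WT and 98431 to 152584 in cKO. Ependymal markers had 6 of 6 below 0 (961 to 1967 in WT, 883 to 1118 in cKO). Choroid plexus markers had 8 of 8 below 0 (12059 to 235064 in WT, 18950 to 69427 in cKO), and astrocyte markers 3 of 7 (86756 to 102028 in WT, 91379 to 109933 in cKO). Endothelial markers had 5 of 5 below 0 (6372 to 7231 in WT, 5736 to 6841 in cKO) and thalamus markers 7 of 8 (3701 to 5865 in WT, 4062 to 4337 in cKO). Interneuron markers had 7 of 8 above 0, with Sst higher in every cKO library (log2 difference 0.27, limma adjusted p = 0.496). Their sums were 24657 to 32536 in WT and 28317 to 35722 in cKO. Microglia markers had 5 of 6 above 0 (9420 to 10425 in WT, 9246 to 12352 in cKO). Apart from 1 thalamus marker, Gbx2, none of these markers was at 0 in any library, and 0 passed limma after adjustment. Their part in the values of Clock, Bhlhe40, Bhlhe41 and Hlf was not tested.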

How the data were processed

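The submitters' processing notes name build mm9 and the tools STAR, StringTie and DESeq2, without versions or roles. The authors deposited a log2 value per gene and library, which equals log2(reads / size factor + 1): for 100% of values the number of reads was whole (tolerance 0.001 reads), and these reads gave the depth. The authors' deposited p-value and FDR columns come from a test that is not stated further, and are quoted only where named. The groups were compared on the log2 values with limma 3.58.1, run in R 4.3.3 (trend, robust, pseudocount 1), for genes with at least 1 normalized read in at least 4 libraries. Adjusted p is Benjamini-Hochberg over all genes tested, with a threshold of 0.05. Single values were compared by two-sided exact permutation tests. The members and lists were chosen with earlier results of these data known. Named genes were the 9 members, the repressor list with Dbp and Tef, other list genes at an unadjusted p under 0.05, and the 3 genes most like Clock, Arntl and Npas2. Simulated data of the same size as the cKO and WT comparison (26135 genes) were tested with limma. It recovered 34% of 50 genes raised 1.5-fold and 2% of 50 raised 1.25-fold, and called 1 unchanged gene. The simulated spread was set by a formula and not estimated from these libraries, so these shares need not hold for the real comparison. Planned count-model tests were not run, and the recovered reads were tested with limma-voom instead.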

Additional observations from a re-analysis of the deposited data

Results flagged for a closer look

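In 44 groups of 4 libraries (22 named genes), 2 held a library far from the other 3, where chance alone gives about 1 group in 20. Nfil3 had 268 normalized reads in WT replicate 1, against 364 to 377 in the other WT libraries. Bhlhe40 had 2877 in cKO replicate 2, against 3628 to 3796 in the other cKO libraries. In these 2 libraries most immediate early genes were also at the lowest value of their group. So were most choroid plexus and thalamus markers in WT replicate 1 and most interneuron markers in cKO replicate 2. The part of these lists in the 2 values was not tested.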

How the results depend on the processing

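Over 16 alternative settings, 0 of the 9 genes passed limma in each one. Clock, Arntl, Npas2, Rora, Bhlhe40, Bhlhe41 and Hlf kept their direction in all 16, and the lowest adjusted p of any of the 9 was 0.324. The number at an unadjusted p under 0.05 was 1 in place of 2 with quantile normalization, a pseudocount of 0.1, limma-voom or no trend and no robust estimation (an alternative chosen after seeing the data). It ranged from 1 to 3 when 1 library was left out, and was 1 without WT replicate 1, WT replicate 2, cKO replicate 3 or cKO replicate 4. Clock stayed under 0.05 unadjusted in every setting (p from 0.00672 to 0.0438). Leaving out 1 library turned the direction of Rorb once (range −0.22 to 0.052, turned without cKO replicate 2) and of Nfil3 at WT replicate 1, cKO replicate 1 and cKO replicate 4 (range −0.13 to 0.14). It did so for the ratios of Rora over Rorb (−0.13 to 0.16) and Bhlhe40 over Bhlhe41 (−0.025 to 0.24). The cause was not tested. Same-numbered libraries did not deviate together (r from −0.040 to 0.029 across genes), and different-numbered ones gave r from −0.052 to 0.037. No pairing by number was seen, which does not exclude one. With the replicate block the number at an unadjusted p under 0.05 was 3, Hlf being the third, and 0 passed after adjustment. Tests of count models were planned and not run.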
